A study of Mus musculus with 8 samples.

Results

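The unfolded protein response (UPR) sensors and activators examined here are 7 genes: Ern1, Eif2ak3, Atf6, Atf6b, Xbp1, Mbtps1 and Mbtps2. They were taken by name, as the genes at the top of the response, with earlier results of these data known. All 7 were found among the 16538 genes of the deposited table, and all 7 were among the 10177 genes tested. Their RNA was measured in DN3 thymocytes, the CD4 and CD8 double-negative stage at which developing T cells undergo β-selection, from mice of 6 weeks of age on the C57BL/6 strain. The control group (n = 4 libraries) carried Sel1l-f/f, that is, loxP sites in both copies of Sel1l, and no Cre, although the series text calls these animals wild type. The Sel1l CKO group (n = 4 libraries) carried Sel1l-f/f and hCD2cre+, a Cre transgene driven by human CD2 regulatory sequence that acts from early thymic progenitors on. Both groups thus shared the floxed allele, and the Cre transgene was present in Sel1l CKO libraries only, so that an effect of Cre and one of Sel1l loss cannot be told apart. The labels do not name the animal behind each library, but the methods of the study take replicates to be independent biological samples by default.

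The UPR is the signalling that follows the accumulation of unfolded protein in the endoplasmic reticulum (ER), and it starts from sensors that span the ER membrane. IRE1α, encoded by Ern1, is a kinase and ribonuclease that cuts Xbp1 mRNA, after which the ends are joined and the shifted reading frame yields the transcription factor XBP1s. PERK, encoded by Eif2ak3, phosphorylates the translation factor eIF2α, which lowers protein synthesis while ATF4 is made. ATF6 and its paralog ATF6β, encoded by Atf6 and Atf6b, move to the Golgi, where site-1 protease (Mbtps1) and site-2 protease (Mbtps2) cut them in turn and free a transcription factor. SEL1L is the adaptor of the HRD1 ubiquitin ligase in ER-associated degradation (ERAD), which removes misfolded ER proteins.

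The site that joins the first of these branches is shown because the gene totals below cannot tell the cut form of Xbp1 from the uncut one. The IRE1α site was located by searching the Xbp1 transcripts of GENCODE M21 (GRCm38) for a pair of loops of 7 bases. Each loop had to start with CNGCAG and be closed by a stem of at least 4 base pairs, G with T allowed. With a cut set after the third base of each loop, 26 bases are removed at chr11:5524279-5524304 on the + strand. These bases lie in exon 4 of 5 of the longest Xbp1 transcript, in coding sequence. Each cut lies in a loop of 7 bases, held by a stem of 6 base pairs on the 5′ side and of 7 on the 3′ side. The mRNA is given 5′ to 3′ with the removed bases in capitals, followed by the joined form.
Xbp1 uncut: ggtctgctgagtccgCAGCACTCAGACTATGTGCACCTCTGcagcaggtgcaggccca
Xbp1 joined: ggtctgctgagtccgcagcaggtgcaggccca
Of the 4 annotated Xbp1 transcripts, 3 hold both loops. A read from either form counts equally towards the Xbp1 value, so every Xbp1 level here is the sum of both forms.

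Levels were deposited as RPKM, reads scaled to gene length and to the reads counted in a library. The values matched the full span of each gene with its introns, not its exons, which places long genes low. Depth was between 32900253 and 50401359 counted reads per library. Sel1l itself had 1.83, 1.66, 1.61 and 1.57 RPKM in control libraries 1 to 4 and 0.917, 0.876, 1.32 and 1.23 RPKM in Sel1l CKO libraries 1 to 4. Every Sel1l CKO library was below every control library, and libraries 3 and 4 kept more Sel1l RNA than libraries 1 and 2. The mean was 65.1% of control (log2 fold change −0.59, SE 0.13, limma adjusted p = 0.0417). The gene total includes exons outside the deleted part, so it does not measure how much intact transcript was left. The call was lost without any single control library and without Sel1l CKO 1 or 2, with limma adjusted p from 0.0816 to 0.119.

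The 11 DN3 markers used for the check (among them Ptcra, Il2ra, Rag1 and Notch1) were all expressed. Their summed level was 588 to 693 RPKM in control and 527 to 558 RPKM in Sel1l CKO, lower in every Sel1l CKO library. Cd3e and Notch3 also had every Sel1l CKO library below every control library. In either direction 0 of 11 passed the test. Over all genes tested 2.98% passed as higher and 0.963% as lower, so this count says little for 11 genes. Markers of other cells were low for most lists. Those of CD4 or CD8 thymocytes summed to 1.29 to 2.97 RPKM in control and 1.48 to 3.56 in Sel1l CKO, those of B or plasma cells to 8.29 to 10.4 and 5.52 to 8.38 with Cd79b making up nearly all of it and 6 of 8 under 0.1 RPKM on average, and those of thymic stroma to 1.10 to 1.40 and 1.03 to 1.48. Myeloid or dendritic markers summed to 3.78 to 7.44 RPKM in control and 2.01 to 4.38 in Sel1l CKO. NK cell markers, here mostly Nkg7 and Gzma, summed to 57.3 to 68.0 and 44.2 to 53.8, with Klrb1c at or near 0. Erythroid markers summed to 0.00 to 1.12 and 0.465 to 2.66, with Alas2 at 0 in all libraries. The 7 immediate early genes of the list (such as Fos and Jun) split the libraries by replicate number, with 392 and 332 RPKM in control 1 and 2 against 1494 and 1422 in control 3 and 4, and 242 and 161 in Sel1l CKO 1 and 2 against 498 and 569 in Sel1l CKO 3 and 4. No gene of any of these lists passed the limma test. The part of these differences in the results below was not tested, apart from the replicate sets. Since this is bulk RNA, fewer cells of a type and less RNA per cell cannot be told apart.

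Of the 7 genes, 3 passed the limma test as higher in Sel1l CKO: the PERK gene Eif2ak3, the ATF6 gene Atf6 and Xbp1. Over all genes tested, 2.98% passed as higher. None of the 7 passed as lower, against 0.963% of all genes, although Mbtps1 passed as lower in the voom fit on recovered reads. It was the only one of the 7 lower at an unadjusted p under 0.05 (0.00294 by limma, 0.0286 by the exact permutation test). Counted by library, 4 genes (Eif2ak3, Atf6, Atf6b and Xbp1) had every Sel1l CKO library above every control library, as did 7.4% of all genes tested. Mbtps1 had every Sel1l CKO library below every control library, as did 6.32% of all genes tested. The groups overlapped for Ern1 and Mbtps2. The 3 genes that passed lost the test together in several smaller sets of libraries: the count fell to 0 without control 1, control 3, control 4, Sel1l CKO 3 or Sel1l CKO 4, to 1 without control 2 (Xbp1), and stayed at 3 without Sel1l CKO 1 or Sel1l CKO 2.

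**Figure D1:**
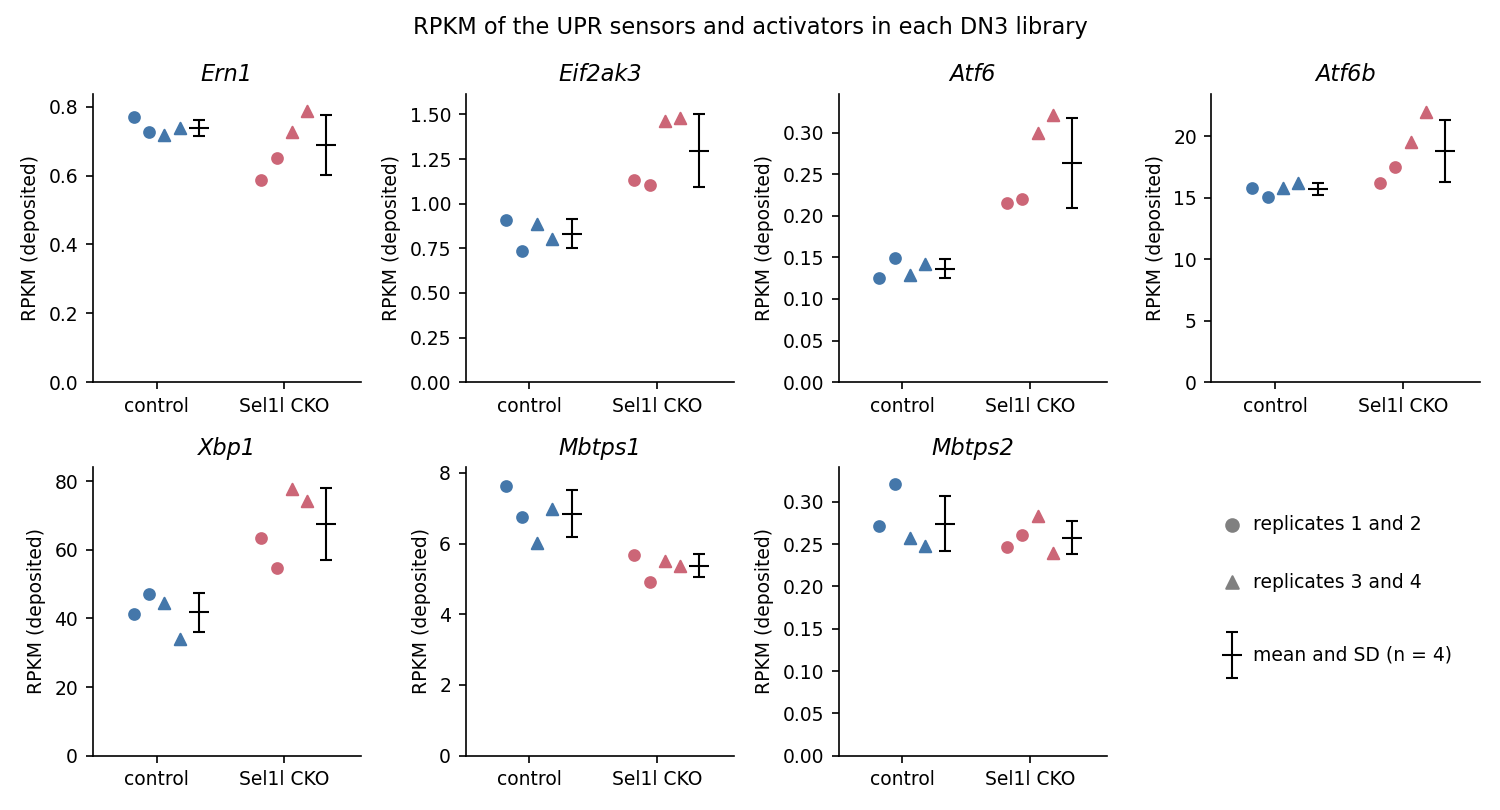
Deposited RPKM (vertical axes, linear from 0, a scale for each gene) of the 7 genes in every library, with control in blue and Sel1l CKO in red. Points are libraries, and bars give the mean and SD (n = 4). Eif2ak3, Atf6, Atf6b and Xbp1 had all Sel1l CKO points above the control points, Mbtps1 had them all below, and the triangles (replicates 3 and 4) lay above the circles (replicates 1 and 2) in Sel1l CKO for 5 genes.

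Ern1, the gene of the IRE1α kinase and nuclease, lies on chr11:106394650-106487852 on the − strand. It had 0.769, 0.726, 0.718 and 0.739 RPKM in control libraries 1 to 4 and 0.588, 0.650, 0.725 and 0.788 RPKM in Sel1l CKO libraries 1 to 4. The control libraries lay close together, and the Sel1l CKO libraries spread on both sides of them. The log2 fold change was −0.10 (SE 0.09, 95% interval −0.30 to 0.11, limma adjusted p = 0.585), so a difference of either sign was not detected, and a rise above the upper bound of 0.11 lay outside the interval. Between 2076 and 3232 reads per library stood behind these values. Replicates 1 and 2 alone differed by −0.24 between the genotypes, and replicates 3 and 4 alone by 0.05. These are RNA values and measure neither the protein nor its activity. The study reported more IRE1α protein and more Xbp1 splicing in Sel1l CKO thymocytes.

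Xbp1, the target of that nuclease, lies on chr11:5520659-5525893 on the + strand. It had 41.4, 47.0, 44.5 and 34.03 RPKM in control and 63.5, 54.7, 77.6 and 74.2 RPKM in Sel1l CKO, from 6722 to 14438 reads per library. The groups did not overlap, and Sel1l CKO 2 came nearest to the controls. Control libraries averaged 41.7 ± 5.63 RPKM and Sel1l CKO libraries 67.5 ± 10.4 RPKM (SD, n = 4 per group). On the log2 scale this rise was 0.69 (SE 0.13, limma adjusted p = 0.0241). Without control 1, 3 or 4 or Sel1l CKO 3 or 4 the log2 fold change stayed between 0.59 and 0.72, and the limma adjusted p was between 0.0521 and 0.0711.

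The ratio of Xbp1 to Ern1 within a library does not depend on how libraries are scaled. There were 3.02, 3.64, 3.48 and 2.59 Xbp1 reads for each Ern1 read in control libraries 1 to 4, and 6.06, 4.73, 6.01 and 5.29 in Sel1l CKO libraries 1 to 4. All Sel1l CKO ratios were above all control ratios. The log2 ratio of RPKM was higher by 0.80 in Sel1l CKO (exact two-sided permutation test over 70 assignments, p = 0.0286, the smallest this design allows, 0.0381 adjusted over 4 ratios). It was 0.69 in the first 2 replicates and 0.91 in the last 2. Substrate and nuclease RNA thus moved unequally between the genotypes.

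Eif2ak3, the gene of the PERK kinase, lies on chr6:70844515-70905245 on the + strand. It had 0.906, 0.733, 0.889 and 0.800 RPKM in control and 1.13, 1.11, 1.47 and 1.48 RPKM in Sel1l CKO, from 1832 to 3385 reads per library. The lowest Sel1l CKO library was above the highest control library. Control libraries averaged 0.832 ± 0.0808 RPKM and Sel1l CKO libraries 1.296 ± 0.205 RPKM (SD, n = 4 per group). The log2 fold change was 0.58 (SE 0.12, limma adjusted p = 0.0296) on log2(RPKM + 0.1), which shrinks the change of a gene at this level. It was 0.63 with a pseudocount of 0.01, 0.63 on exon length, 0.63 in the voom fit and 0.32 with a pseudocount of 1. For its Gene Ontology analysis the study took upregulated genes with a log2 fold change above 0.59. That limit was applied to results of DESeq2 on counts, a different measure from log2(RPKM + 0.1). Of the values just given, the main value of 0.58 and that with a pseudocount of 1 were below it. The other values just given were above it. Rescaling to the same sum (0.57) and median-of-ratios scaling (0.589) also gave values below it. The call was lost without any single control library and without Sel1l CKO 3 or 4 (limma adjusted p from 0.0588 to 0.0855), with log2 fold changes of 0.51 to 0.61.

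Both kinase sensors are long genes of like level, and only for Eif2ak3 was a rise called. The direct comparison is the ratio of Eif2ak3 to Ern1, which was 1.18, 1.01, 1.24 and 1.08 in control and 1.93, 1.70, 2.02 and 1.88 in Sel1l CKO. The ratios of the groups did not overlap. The log2 ratio was higher by 0.74 in Sel1l CKO (exact permutation p = 0.0286, adjusted p = 0.0381), with 0.73 in replicates 1 and 2 and 0.75 in the others. Of all the ratios examined, this one varied least between the replicate sets.

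The other kinases that phosphorylate eIF2α were examined beside PERK, since all of them feed ATF4. The heme-regulated kinase Eif2ak1 had a log2 fold change of −0.02, the double-stranded RNA kinase Eif2ak2 of −0.16 and the amino acid sensor Eif2ak4 (GCN2) of −0.05. None of the 3 passed the limma test, with adjusted p from 0.267 to 0.888. Eif2ak2 had the lowest of these, with 1.06 ± 0.0660 RPKM in control and 0.932 ± 0.0570 in Sel1l CKO (SD, n = 4 each). The IRE1β gene Ern2, known from mucosal epithelium, was listed at 0 in all libraries and was not tested.

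Atf6, the gene of the ATF6 sensor, lies on chr1:170704674-170867771 on the − strand and is the longest of the 7. It had 0.125, 0.150, 0.129 and 0.142 RPKM in control and 0.215, 0.220, 0.299 and 0.321 RPKM in Sel1l CKO. These low values rest on 739 to 1809 reads per library spread over a long span. The groups did not overlap, and Sel1l CKO 3 and 4 stood clear of Sel1l CKO 1 and 2.

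Control libraries averaged 0.136 ± 0.0115 RPKM of Atf6 and Sel1l CKO libraries 0.264 ± 0.0542 RPKM (SD, n = 4 per group), 1.94 times the control mean. The log2 fold change was 0.61 (SE 0.12, limma adjusted p = 0.0231) on the scale of log2(RPKM + 0.1), which understates the change of a gene this low. It was 0.91 when RPKM was computed on exon length and 0.15 with a pseudocount of 1, and passed the test in both. Without any single control library or Sel1l CKO 3 or 4 the limma adjusted p was between 0.0527 and 0.0763, with log2 fold changes of 0.54 to 0.64.

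Atf6b, the gene of ATF6β, lies on chr17:34647146-34655074 on the + strand. It had 15.8, 15.1, 15.8 and 16.2 RPKM in control and 16.2, 17.5, 19.6 and 22.02 RPKM in Sel1l CKO, from 4398 to 6983 reads per library. The groups did not overlap, but Sel1l CKO 1 was barely above control 4. The mean was 15.7 ± 0.474 RPKM in control and 18.8 ± 2.55 in Sel1l CKO (SD, n = 4 each), and the log2 fold change of 0.25 (SE 0.09, 95% interval 0.04 to 0.46) did not pass (limma adjusted p = 0.186).

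The paralogs were set against each other within libraries. On exon length, Atf6 stood at 4.87, 6.11, 5.02 and 5.37% of the Atf6b level in control and at 8.15, 7.74, 9.41 and 8.95% in Sel1l CKO. Every Sel1l CKO library was above every control library. The log2 ratio of Atf6 to Atf6b was higher by 0.68 in Sel1l CKO (exact permutation p = 0.0286, adjusted p = 0.0381), with 0.54 in replicates 1 and 2 and 0.82 in the others. With a pseudocount of 1 added to both values the difference turned to −0.086, since that constant is several times the Atf6 value itself. Atf6b nevertheless remained the more abundant of the pair in all 8 libraries.

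Mbtps1, the gene of site-1 protease, lies on chr8:119508156-119558735 on the − strand. It had 7.64, 6.76, 6.01 and 6.98 RPKM in control and 5.68, 4.92, 5.52 and 5.38 RPKM in Sel1l CKO, from 8957 to 16335 reads per library. It was the only one of the 7 with all Sel1l CKO libraries below all control libraries. The mean was 6.85 ± 0.672 RPKM in control and 5.37 ± 0.328 in Sel1l CKO (SD, n = 4 each), or 78.5% of control. The log2 fold change of −0.34 (SE 0.08, 95% interval −0.53 to −0.15) did not pass (limma adjusted p = 0.0630). It passed without control 3, the lowest control library, with a log2 fold change of −0.40 (limma adjusted p = 0.0436). Taken alone, replicates 1 and 2 gave −0.44 and replicates 3 and 4 gave −0.25.

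Mbtps2, the gene of site-2 protease, lies on chrX:157535371-157598715 on the − strand. It had 0.272, 0.321, 0.257 and 0.247 RPKM in control and 0.247, 0.260, 0.284 and 0.239 RPKM in Sel1l CKO. The groups overlapped throughout. The log2 fold change was −0.06 (SE 0.09, 95% interval −0.27 to 0.14, limma adjusted p = 0.728), and its sign changed to 0.015 under quantile normalization. Between 499 and 971 reads per library stood behind it, the fewest of the 7 genes.

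The proteases act one after the other on the same substrates, so their ratio was examined too. Mbtps1 over Mbtps2 was 28.1, 21.1, 23.4 and 28.2 in control and 23.0, 18.9, 19.5 and 22.5 in Sel1l CKO. These ranges overlapped. The log2 ratio was lower by 0.26 in Sel1l CKO, going from 4.64 ± 0.21 to 4.38 ± 0.14 (SD, n = 4 each), and did not pass (exact permutation p = 0.114, adjusted p = 0.114). Without control 2 it passed at −0.34 (exact permutation adjusted p = 0.0286).

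**Figure D2:**
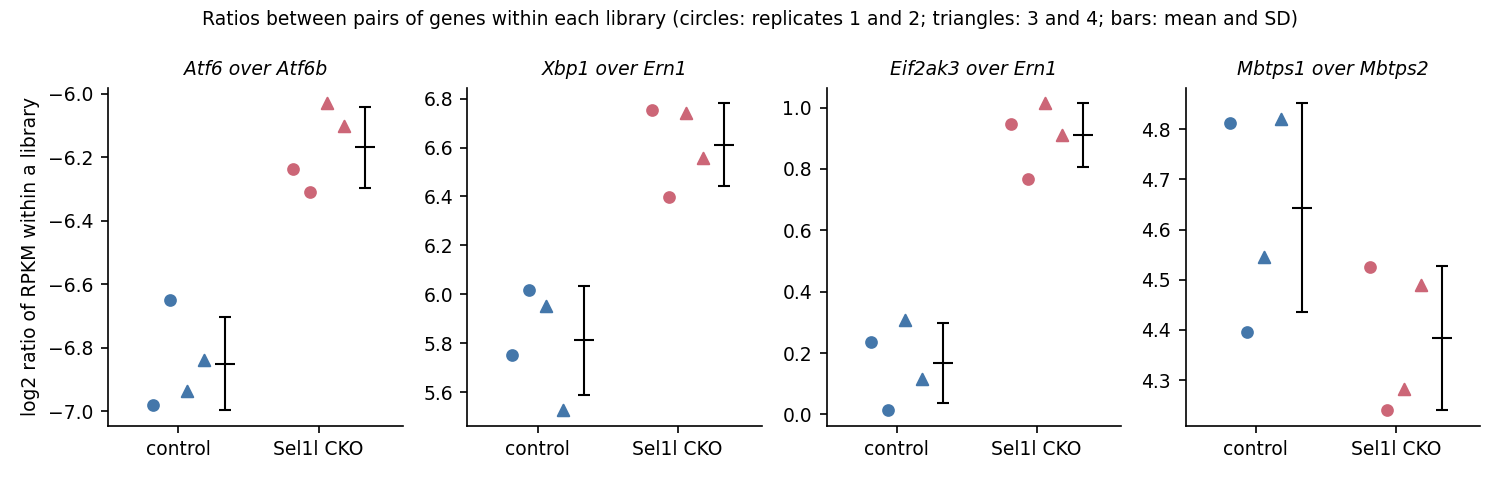
Log2 ratio of the RPKM of 2 genes within each library (vertical axes, not from 0) for 4 pairs, control in blue and Sel1l CKO in red. Bars give the mean and SD (n = 4). The first 3 ratios were higher in every Sel1l CKO library than in every control library, and Mbtps1 over Mbtps2 overlapped.

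**Figure D3:**
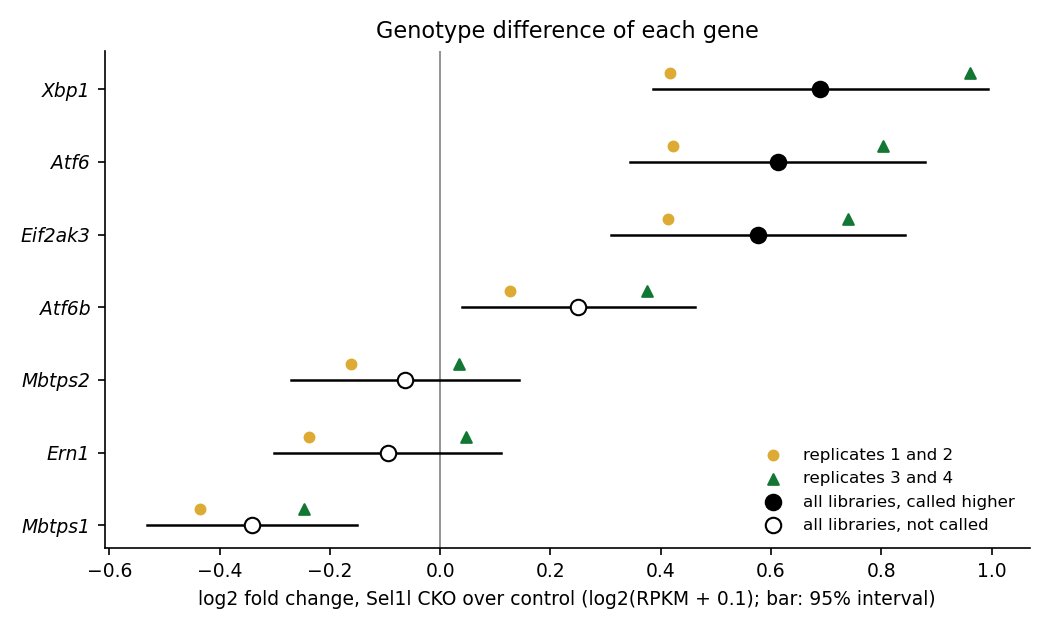
Log2 fold change of each gene (horizontal axis, Sel1l CKO over control on log2(RPKM + 0.1)) from all 8 libraries with its 95% interval, and above it the difference in replicates 1 and 2 alone (circles) and in 3 and 4 alone (triangles). The triangles lay to the right of the circles for all 7 genes, and for Ern1 and Mbtps2 they lay on opposite sides of 0.

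The libraries were also compared by replicate set. In 5 of the 7 genes (Ern1, Eif2ak3, Atf6, Atf6b and Xbp1) Sel1l CKO 3 and 4 were both above Sel1l CKO 1 and 2, as in 32.7% of all genes tested. In control 0 of the 7 had libraries 3 and 4 both above 1 and 2, against 16.1% of all genes. The genotypes differed by 0.41 in replicates 1 and 2 and by 0.74 in replicates 3 and 4 for Eif2ak3, 0.42 and 0.80 for Atf6, and 0.42 and 0.96 for Xbp1. These called genes had every Sel1l CKO library above every control library, so the sign had to be the same in both sets. Atf6b had 0.13 and 0.38. Sel1l, in the opposite order, had −0.89 and −0.30. The immediate early genes given above split by the same sets in both genotypes, and no label names a batch. With the replicate set as a term in the fit, Eif2ak3, Atf6 and Xbp1 were called higher as before (limma adjusted p = 0.0140, 0.0150 and 0.0230), and Atf6b (0.0878) and Mbtps1 (0.0558) again did not pass.

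The 7 genes span a wide range of abundance once length is taken into account. On exon length, that is, with RPKM recomputed on the summed exons of a gene, the order in control was Xbp1 (67.3 ± 9.07, SD, n = 4), Atf6b (45.1 ± 1.36), Mbtps1 (32.9 ± 3.22), Ern1 (8.42 ± 0.255), Eif2ak3 (8.38 ± 0.814), Atf6 (2.41 ± 0.203) and Mbtps2 (1.72 ± 0.204). Neighbours in this order did not overlap, except Ern1 and Eif2ak3. In Sel1l CKO the order was Xbp1 (109 ± 16.8), Atf6b (54.1 ± 7.33), Mbtps1 (25.8 ± 1.57), Eif2ak3 (13.1 ± 2.07), Ern1 (7.84 ± 0.995), Atf6 (4.66 ± 0.958) and Mbtps2 (1.61 ± 0.121). Here no neighbours overlapped, and Eif2ak3 stood above Ern1. The sources used here do not say whether reads in introns were counted, and if they were, these levels are too high for the long genes Ern1, Eif2ak3, Atf6 and Mbtps2.

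**Figure D4:**
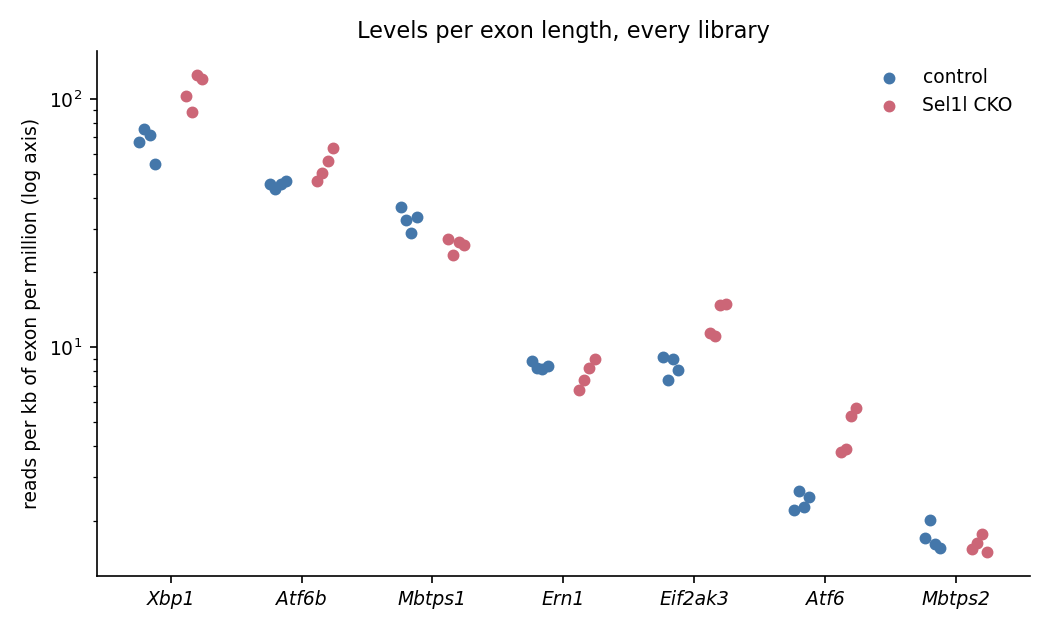
Level of the 7 genes as RPKM on exon length (vertical log axis) in each control (blue) and Sel1l CKO (red) library, ordered by the control mean. Ern1 and Eif2ak3 shared a level in control (8.42 and 8.38) and separated in Sel1l CKO (7.84 and 13.1).

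The next layer of the pathway was described with lists of genes around each sensor, whose median log2 fold changes stand beside −0.01 for all genes tested. Of all genes tested, 2.98% were called higher and 0.963% lower. The lists were chosen with earlier results of these data known. Of the 15 XBP1s targets, which make ER translocation, folding and export components, 13 were called higher and 0 lower, with a median of 1.04. The largest were the COPII coat gene Sec24d (0.225 ± 0.0443 to 1.45 ± 0.415 RPKM, SD, n = 4 each), the disulfide isomerase Pdia6 (11.8 ± 0.369 to 40.5 ± 3.77) and the translocon gene Sec61b (14.8 ± 1.10 to 34.8 ± 1.84). The 2 that did not pass, named after their values were seen, were the BiP cochaperone Dnajb9 (log2 fold change 0.46) and the ERAD factor Edem1 (0.22). Dnajb9 split by replicate number, with 3.97, 3.65, 13.1 and 6.91 RPKM in control libraries 1 to 4. In Sel1l CKO libraries 1 to 4 it had 5.31, 5.74, 13.0 and 12.2 RPKM.

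Of the 11 ATF6 targets, mostly ER chaperones and ERAD genes, 11 were called higher, with a median of 1.83. Derl3 averaged under 0.1 RPKM in control and so entered the test only through its level in Sel1l CKO, and without it 10 of 10 were called higher, with a median of 1.82. The ERAD rhomboid Derl3 went from 0.0919 ± 0.0831 to 7.84 ± 3.18 RPKM, the BiP partner Sdf2l1 from 20.6 ± 0.932 to 118 ± 10.1 RPKM and the chaperone Hyou1 from 16.4 ± 0.421 to 68.5 ± 10.3 RPKM (SD, n = 4 each). Targets of ATF6 and of XBP1s overlap in the cell, so a list does not measure 1 factor alone.

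Of the 12 genes listed for PERK and ATF4, 10 were tested, since Atf3 and Vldlr were too low, and 7 were called higher and 0 lower, with a median of 1.72. Of these, Chac1, Trib3 and Nupr1 averaged under 0.1 RPKM in control and entered the test only through their level in Sel1l CKO. Without these 3, 5 of 7 were called higher and 0 lower, with a median of 1.34. Chac1, which degrades glutathione, went from 0.0137 ± 0.0273 to 2.698 ± 0.605 RPKM, the pseudokinase Trib3 from 0.0854 ± 0.0399 to 4.62 ± 3.50 RPKM and the asparagine synthetase Asns from 0.108 ± 0.0420 to 4.85 ± 3.23 RPKM (SD, n = 4 each). Trib3 had 1.35, 9.58, 3.92 and 3.62 RPKM in Sel1l CKO libraries 1 to 4, and Asns had 1.86, 9.40, 3.65 and 4.47. Sel1l CKO 2 thus weighed most on both means, while Chac1 was highest in Sel1l CKO 3 (3.48 RPKM). The 3 that did not pass, named after their values were seen, were the eIF2α phosphatase subunit Ppp1r15a (log2 fold change −0.82, 98.5 ± 78.2 to 45.7 ± 24.4 RPKM), the mTORC1 inhibitor Ddit4 (−0.18) and the stress gene Nupr1 (2.05). The result for Nupr1 depended on the setting. It was called higher with a pseudocount of 0.01, on exon length, with array weights and in the voom fit (limma adjusted p from 0.00508 to 0.0298). Trib3 lost its call in the voom fit (limma adjusted p = 0.0584). Ppp1r15a split by replicate set as the immediate early genes did, with 32.8 and 29.1 RPKM in control 1 and 2, 161.6 and 170.7 in control 3 and 4, 25.2 and 24.1 in Sel1l CKO 1 and 2, and 63.6 and 69.8 in Sel1l CKO 3 and 4. With the set as a term it was called lower (limma adjusted p = 0.0394).

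**Figure D5:**
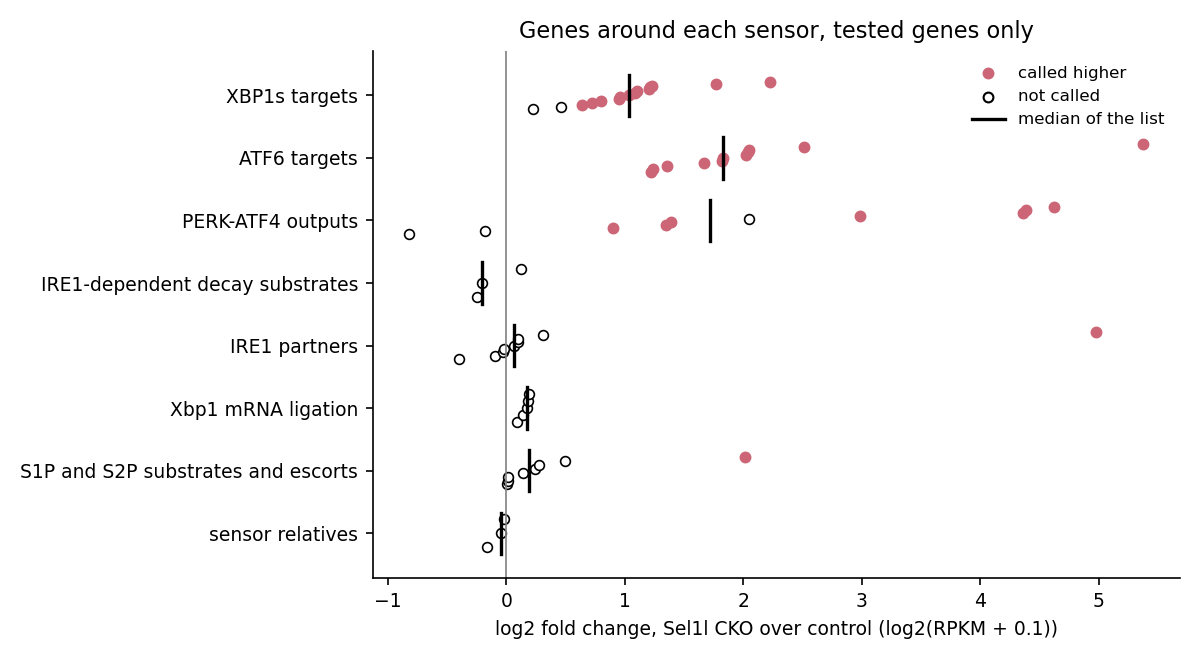
Log2 fold change (horizontal axis, Sel1l CKO over control on log2(RPKM + 0.1)) of each tested gene in the 8 lists around the sensors. Filled points passed the limma test as higher, open points did not pass, and vertical bars are list medians. The bars of the XBP1s, ATF6 and PERK-ATF4 lists stood at 1.04, 1.83 and 1.72, and those of the other lists between −0.21 and 0.19. Without genes that averaged under 0.1 RPKM in control, the ATF6 median was 1.82 and the PERK-ATF4 median 1.34.

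The genes that work with the sensors themselves were described in the same way. IRE1α also degrades some other ER mRNAs, and of 7 such substrates 3 were tested: Bloc1s1 (log2 fold change 0.12), Hgsnat (−0.25) and Pdgfrb (−0.21). None passed the limma test, with adjusted p from 0.384 to 0.769, and Scara3, Col6a1, Sparc and Pmp22 were too low to test. Of 9 partners of IRE1α, 1 was called higher and 0 lower, with a median of 0.06. That 1 was the collagen chaperone Serpinh1, which went from 0.226 ± 0.164 to 9.81 ± 3.35 RPKM (SD, n = 4 each). The ER membrane protein gene Tmem33, named after its values were seen, had all Sel1l CKO libraries below all control libraries (2.35 ± 0.368 RPKM in control, 1.74 ± 0.149 in Sel1l CKO, SD, n = 4 each) but did not pass (log2 fold change −0.40, limma adjusted p = 0.0910).

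The 5 genes of the complex that rejoins Xbp1 mRNA had log2 fold changes of 0.18 (the ligase Rtcb), 0.14 (the helicase Ddx1), 0.09 (Fam98b), 0.19 (Zbtb8os) and 0.17 (Rtraf). None passed the limma test. The lowest adjusted p was that of Rtcb (0.108), whose Sel1l CKO libraries were all above its control libraries (10.7 ± 0.207 and 12.2 ± 0.467 RPKM, SD, n = 4 each).

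Other substrates of the site-1 and site-2 proteases and their escorts gave 1 gene called higher and 0 lower of 8 tested, with a median of 0.19. The 1 was Creb3l2, a membrane-bound transcription factor related to ATF6, which went from 0.10 ± 0.0133 to 0.727 ± 0.202 RPKM (SD, n = 4 each, log2 fold change 2.01, limma adjusted p = 0.000215). The sterol regulators Srebf1 (0.14) and Srebf2 (0.01), named after their values were seen, did not pass. Creb3l1, Creb3l3 and Creb3l4 were too low to test.

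Genes with the most similar course over the 8 libraries were found by the root mean square difference of log2(RPKM + 0.1), each gene being set to 0 at its control mean. For Atf6 these were the signal peptide peptidase H13 (0.05), and the vesicle coat genes Sec31a (0.06) and Copa (0.06). For Eif2ak3 they were the Golgi membrane gene Yipf5 (0.06), the zinc transporter Slc30a7 (0.09) and again H13 (0.10). For Xbp1 they were Gpat4 (0.09), an ER enzyme of glycerolipid synthesis, Tmem214 (0.09) and Ift20 (0.13). Few genes came within 0.1 of these profiles: 15 for Atf6, 3 for Eif2ak3 and 2 for Xbp1. The scale of log2(RPKM + 0.1) understates the change of Atf6, as given above, and the neighbours of Atf6 were sought on this scale only.

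Among the 7 genes themselves, Eif2ak3 and Atf6 were the closest pair on this scale (0.12). Ern1 and Mbtps2 (0.14) and Atf6 and Xbp1 (0.16) followed, and Xbp1 and Mbtps1 were the farthest apart (0.76). The constant of 0.1 shrinks the log2 fold change of Atf6 (0.61, 0.91 on exon length) more than that of Eif2ak3 (0.58, 0.63 on exon length). The closeness of Atf6 and Eif2ak3 was therefore not shown beyond this scale. The nearest genes to Atf6b were Cdk16 (0.05), Rabl6 (0.06) and Txlna (0.06), and those to Mbtps1 were Zc3hav1l (0.08), Slmap (0.09) and Zbtb1 (0.09). For Ern1 (Limk2, Zfp236 and Ncor1, all 0.03) and Mbtps2 (Trpv2, Lamc1 and 1810030O07Rik, all 0.05) the likeness is of little weight, since 509 and 350 genes lay within 0.1 of these nearly flat profiles. All libraries are shared between the genes compared, and the measure is a description with no test.

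Promoter sequence was examined because Eif2ak3 and Xbp1 rose together. RefSeq start sites on GRCm38.p6 gave windows of 300 bases (250 before the start) for 6 of the 7 genes, all but Atf6. The ER stress element, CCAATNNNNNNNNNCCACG on either strand, to which ATF6 and XBP1 are known to bind with NF-Y, occurred in none of the 6 windows and in 0.119% of all 32851 windows. The related ERSE-II element, ATTGG and CCACG with 1 base between them (0.0365% of windows), and the UPR element TGACGTGG (0.676%) were in none of the 6 either. The CCAAT box alone, which also forms the first part of the ER stress element, was found 6 times for Eif2ak3, once for Atf6b and not for the other 4. At least 1 CCAAT on either strand was in 37.4% of all windows, and 6 or more in 0.0791%. The last part of the ER stress element, CCACG, was found 1 time for Ern1 and 2 times for Mbtps1. It was not found for Eif2ak3, Xbp1, Atf6b or Mbtps2, and at least 1 was in 32.8% of all windows. The 250 bases before the start are given for the genes that rose, on the strand of the gene and with CCAAT, or ATTGG where it lies on the other strand, in capitals.
Eif2ak3 chr6:70844265-70844514 (+): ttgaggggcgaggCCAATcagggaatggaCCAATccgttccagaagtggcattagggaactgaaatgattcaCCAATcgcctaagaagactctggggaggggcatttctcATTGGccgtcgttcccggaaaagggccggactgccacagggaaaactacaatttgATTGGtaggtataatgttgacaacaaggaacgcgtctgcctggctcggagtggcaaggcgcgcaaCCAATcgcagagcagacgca
Xbp1 chr11:5520391-5520640 (+): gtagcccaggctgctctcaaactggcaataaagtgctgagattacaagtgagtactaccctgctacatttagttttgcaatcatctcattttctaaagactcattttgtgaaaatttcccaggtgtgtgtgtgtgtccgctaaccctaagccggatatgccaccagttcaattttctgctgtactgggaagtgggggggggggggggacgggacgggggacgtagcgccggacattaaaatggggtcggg
A match describes these letters only, and the absence of one says nothing of sites outside the window.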

How the data were processed

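The authors sorted DN3 thymocytes into TRIzol LS, made stranded mRNA libraries, sequenced them as paired ends, aligned the reads to GRCm38 with STAR 2.5.2b and used HTSeq to count reads per protein-coding gene. The deposited values are RPKM, 1 column per library. Groups came from the genotype in the labels (4 control, 4 Sel1l CKO). The 7 genes and all lists were chosen with earlier results of these data known.

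With GENCODE M21 gene spans, 75.3% of genes with a value gave whole reads in all libraries (within 0.02 read), against 3.25% with exon lengths. The recovered reads covered 93.0 to 96.2% of each library. Depth limits the precision of low genes.

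Values were tested as log2(RPKM + 0.1) with limma 3.58.1 (trend, R 4.3.3, two-sided, genotype only) over the 10177 genes whose RPKM averaged 0.1 or more, with Benjamini-Hochberg adjustment and a threshold of 0.05. An earlier report of these data used a minimum of 1. It was lowered here with that report known, because long genes such as Ern1 and Atf6 fell under it. The call of Atf6 rests on the lower minimum. This gave 401 calls, and 2019 genes had an unadjusted p under 0.05. On simulated data of this size, 82% of 200 genes changed by a log2 of 1 were recovered, and 12 unchanged genes were called. The simulated libraries were independent, and a log2 of 1 was more than any of the 7 genes changed. The simulation therefore gives no recovery rate for these genes. Ratios within libraries were tested by exact permutation, without a pseudocount. Named genes were the 7, Sel1l, the sensor relatives, all tested genes of lists with up to 5, the 3 largest called changes of longer lists, and the 3 nearest profiles per gene. Promoters came from RefSeq. Alternatives covered pseudocount, filter, scaling, weights, terms, voom on recovered reads, exon length and each library left out, and, chosen after seeing the data, lists without genes under 0.1 RPKM in control and ratios with a pseudocount of 0.1. Replicates with the same number did not deviate together in every pair (correlations 0.114, 0.078, 0.312 and 0.019), so no pairing was used. Deviations did follow the replicate sets in part. Control 1 and 2 gave 0.078 to 0.258 with Sel1l CKO 1 and 2, and −0.193 to −0.142 with Sel1l CKO 3 and 4. Control 3 gave −0.278 and −0.276 with the former, and 0.312 and 0.311 with the latter. Control 4 stayed between −0.054 and 0.062. The main fit left the sets out. Spring1 of the lists and 4 of the markers were not analysed here.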

Additional observations from a re-analysis of the deposited data

How the results depend on the processing

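The alternatives were run for each gene, the counts and the ratios. Ern1 and Mbtps2 passed in none. Eif2ak3 lost its call with no filter on low values (0.58, limma adjusted p = 0.0699) and with libraries rescaled to the same sum (0.57, 0.0538), Xbp1 with no filter (0.69, 0.0680), and Sel1l with no filter (−0.59, 0.0904) and with the same sum (−0.60, 0.0775). Under the replicate block Atf6 (0.61, 0.0599), Xbp1 (0.69, 0.0628) and Sel1l (−0.59, 0.0870) lost theirs and 1 gene was called higher. No filter likewise left 1. Atf6b passed with array weights (0.33, 0.0342). Mbtps1 passed as lower, the only 1 of the 7, with quantile normalization (−0.37, 0.0489), array weights (−0.35, 0.0216) and voom (−0.35, 0.0411). Mbtps2 turned to 0.015 under quantile normalization. With a pseudocount of 1 the Atf6 over Atf6b ratio turned to −0.086, and Mbtps1 over Mbtps2 passed at −0.28.

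Of all genes, 303 were called higher and 98 lower. Array weights gave 462 and 195, no filter 49 lower, the replicate sets as a term 225 lower and voom 153 lower. Leaving out 1 library gave 198 to 284 higher and 30 to 91 lower, 0 to 3 of the 7 higher and 0 to 1 lower, and log2 fold changes of 0.51 to 0.64 for Eif2ak3, 0.54 to 0.68 for Atf6, 0.59 to 0.79 for Xbp1, −0.40 to −0.29 for Mbtps1 and −0.69 to −0.51 for Sel1l, with −0.34 to −0.20 for the ratio of Mbtps1 to Mbtps2. With a minimum mean RPKM of 1, Ern1, Atf6 and Mbtps2 were not tested. List counts called higher ranged from 12 to 14 for XBP1s targets, 6 to 8 for PERK and ATF4, 1 to 2 for IRE1α partners (Sec63 added with array weights) and 0 to 2 for protease substrates, with 11 for ATF6 throughout. Those called lower stayed at 0, except 1 PERK and ATF4 gene, Ppp1r15a, with the replicate sets as a term (−0.82, limma adjusted p = 0.0394). The causes were not tested. Of 24 groups checked for a library far from the rest, 0 stood out. That count does not speak for single genes of the lists, such as Trib3 and Asns in Sel1l CKO 2.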
